A study of Mus musculus with 4 samples.

Results

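The miR-221 and miR-222 pair was followed as its 4 mature strands, mmu-miR-221-3p, mmu-miR-221-5p, mmu-miR-222-3p and mmu-miR-222-5p (below without the species prefix), which are 4 of the 1979 mature miRNAs counted by small RNA sequencing in resting mouse bone marrow–derived macrophages (BMDMs). They were chosen by name and not by their values, though with earlier results of these data known, and all 4 passed the filter on low values. There were 4 libraries. WT A and WT B came from separate wild-type cultures, 1 library (KO) from homozygous mir-146a-null cells, and 1 library (3′F) from cells homozygous for an allele that trades the later bases of mature miR-146a for those facing them in the hairpin and keeps the seed. All mice were of mixed 129/B6 background and 6 to 7 months old, both mutant alleles were carried in the germline, and 3 mice of each genotype are named without saying whether a library pools them. Marrow cells were plated at 85000 cells per cm2, differentiated in medium holding M-CSF, the growth factor of macrophages, at 10 ng/ml over 8 to 9 days, and harvested 16 h after a change to medium without LPS. The question here is how strongly the pair is represented in these macrophages, how its strands relate to each other, and how far KO and 3′F differ from wild type. Each mutant is a single library, which leaves its differences from WT without replicates and without a test. They are set beside the difference between WT A and WT B. The table also gives the KO and 3′F libraries the letter A, which names a culture replicate, and whether an A marks cultures grown together is not stated, so values against WT A alone are given too.

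A miRNA is cut from a hairpin as a duplex of a 5p and a 3p strand, of which Argonaute usually keeps one (the guide) and discards the other (the passenger). The guide recognizes mRNAs mainly through its seed, bases 2 to 8. miR-221 and miR-222 are made from neighboring hairpins of 1 primary transcript and their 3p guides share a seed. They are best known for repressing Cdkn1b (p27Kip1) and Cdkn1c (p57Kip2), inhibitors of the cell cycle, and Kit, the receptor for stem cell factor, whose loss accompanies the maturation of blood cell progenitors.

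The strands are printed first because the 3p strands share their seed but are not identical in their later bases. RefSeq (GRCm38.p6) lists 3 of the 4 strands, and in each the capitals mark the seed.
miR-221-3p: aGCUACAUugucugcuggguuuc
miR-222-3p: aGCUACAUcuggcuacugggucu
miR-221-5p: aCCUGGCAuacaauguagauuucugu
Both 3p strands are 23 nt long. Counted from 1 at the 5′ end, their first 8 bases are identical. Compared position by position without gaps, 12 of the 23 positions differ, the first being U9C and the last C23U with miR-221-3p as the reference. The block CUGGGU is found in both, at positions 15 to 20 of miR-221-3p and 16 to 21 of miR-222-3p. A count without gaps scores such shifted bases as different, so it understates how alike the later bases are. Of the 1738 mature mouse miRNAs in that table, miR-1928 alone has the same seed as the 3p strands, and it is listed at 0 counts in all 4 libraries, where 3 counts would be 0.157 to 0.263 reads per 1000000 counts (RPM). All 4 strands of the pair had whole-number counts in every library, whereas other lines of the table hold fractions.

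Both hairpins lie on the minus strand of chromosome X, 599 bp apart from start to start. The miR-222 hairpin (Mir222, ENSMUSG00000065471.1) spans chrX:19146893-19146971 and is transcribed before the miR-221 hairpin (Mir221, ENSMUSG00000065422.1), which spans chrX:19146294-19146388. Each overlaps 0 other annotated genes in GENCODE vM21, so they are intergenic in that annotation. The nearest gene, the processed transcript Gm14636 on the same strand, lies 10010 bp from Mir222, and the nearest protein-coding gene, Tex13c3, 332449 bp. The hairpins are given below because the strand ratios that follow are ratios within them, with the listed mature strands (both strands of miR-221, the 3p strand of miR-222) in capitals.
Mir221: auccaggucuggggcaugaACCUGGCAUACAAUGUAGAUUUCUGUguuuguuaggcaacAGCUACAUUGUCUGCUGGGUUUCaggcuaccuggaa
Mir222: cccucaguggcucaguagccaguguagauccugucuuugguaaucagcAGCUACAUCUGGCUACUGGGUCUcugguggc

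The complement of the shared seed, ATGTAGC, was searched on the transcript strand in the longest annotated 3′ UTR of each protein-coding gene (GENCODE vM21) and occurs in 1987 of 21020 genes, or 9.45%. It occurs 1 time in that of Cdkn1b, 1 time in that of Cdkn1c and 2 times in that of Kit. The matches (capitals) are followed by an A in all 4 cases, the base opposite position 1 of the miRNA. A match is a description of the letters and not evidence of repression, and mRNA was not analysed here.
Cdkn1b: ctctaaaagcattggATGTAGCa
Cdkn1c: tgggacctttcgttcATGTAGCa
Kit, first match: aatgatgggagatatATGTAGCa
Kit, second match: tttgtaaatattgaaATGTAGCa

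The libraries held between 11410940 (WT B) and 19087640 (KO) counts, and each interval given is a 95% Wilson interval for counting error alone. It treats reads as independent, which reads of 1 molecule copied by PCR are not, so it can be too narrow. The wild-type strand of the targeted miRNA, miR-146a-5p, stood at 13.4 RPM in KO and 6.64 in 3′F, against 5485 and 6253 in the WT libraries. Of the miRNAs listed as myeloid markers (miR-223-3p, miR-142a-3p, miR-142a-5p and miR-511-3p), 4 of 4 were expressed, with a summed level of 2822 to 3639 RPM in WT, 3051 in KO and 2848 in 3′F. From WT A to WT B, log2(RPM + 1) changed by -0.62 for miR-142a-3p and -0.66 for miR-142a-5p. It changed by -0.10 for miR-223-3p and -0.22 for miR-511-3p. How far these miRNAs are confined to myeloid cells was not tested. Of the endothelial and stromal markers, cells in which miR-221 and miR-222 are also known, 1 of 7 reached 10 RPM (miR-126a-3p), and the summed level of the 2 endothelial markers was 10.2 to 14.0 RPM and that of the 5 stromal markers 7.19 to 10.7 RPM over the 4 libraries. Of these, miR-145a-5p was listed at 0 in KO and 3′F, but wild type itself had only 3 (WT A) and 2 (WT B) reads of it. At so few reads a 0 does not show a loss. Of the erythroid markers, 2 of 3 were expressed, and their summed level was 36.5 RPM in KO and 43.3 in 3′F, against 93.2 and 94.1 in the WT libraries. The lymphocyte marker miR-150-5p was at 1.54 to 2.93 RPM. What part these cells have in the values of the pair was not tested. These libraries are bulk, so fewer cells of a type and less RNA per cell cannot be told apart.

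miR-221-3p and miR-222-3p, the guides, were among the most abundant miRNAs in every library. The counts of miR-221-3p were 473540 for KO, 461535 for 3′F, 467935 for WT A and 383252 for WT B. In RPM, the unit in which the authors normalized the counts, KO stood at 24809 (interval 24739 to 24879), 3′F at 28499 (28418 to 28581), WT A at 27407 (27330 to 27485) and WT B at 33586 (33482 to 33691). Its WT level was 30497 ± 4369 RPM (SD, n = 2). WT B was the highest library and KO the lowest, and 3′F lay between the WT libraries. miR-221-3p had rank 5 of 1979 miRNAs in WT B and rank 7 in the other 3 libraries.

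miR-222-3p, the partner guide, measured 14996 RPM for KO, 16886 for 3′F, 14620 for WT A and 22439 for WT B, or 18529 ± 5529 in WT (SD, n = 2). It had rank 8 in all 4 libraries. WT B stood apart from the other 3 libraries, which lay within 1.16-fold of one another and are the 3 that carry the letter A. The counting intervals of neighbors in this order (WT A, KO, 3′F, WT B) do not overlap, but the lowest and the highest, 1.53-fold apart, share the wild-type genotype. WT B was also the shallowest library, and what part depth has in its level was not tested. With 1 library of letter B, culture and library cannot be told apart.

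The passengers were lower, by different amounts. miR-221-5p measured 2154 RPM for KO, 2710 for 3′F, 2429 for WT A and 2769 for WT B, or 2599 ± 240.2 in WT (SD, n = 2), and had ranks 33 to 37. Its order over the libraries was that of its guide, with KO lowest and WT B highest. miR-222-5p measured 362 RPM for KO, 524 for 3′F, 345 for WT A and 381 for WT B, or 363 ± 25.5 in WT (SD, n = 2), and had ranks 80 to 91. Here WT A, KO and WT B overlapped with their neighbors within counting error, and 3′F was highest, outside the WT range.

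**Figure D1:**
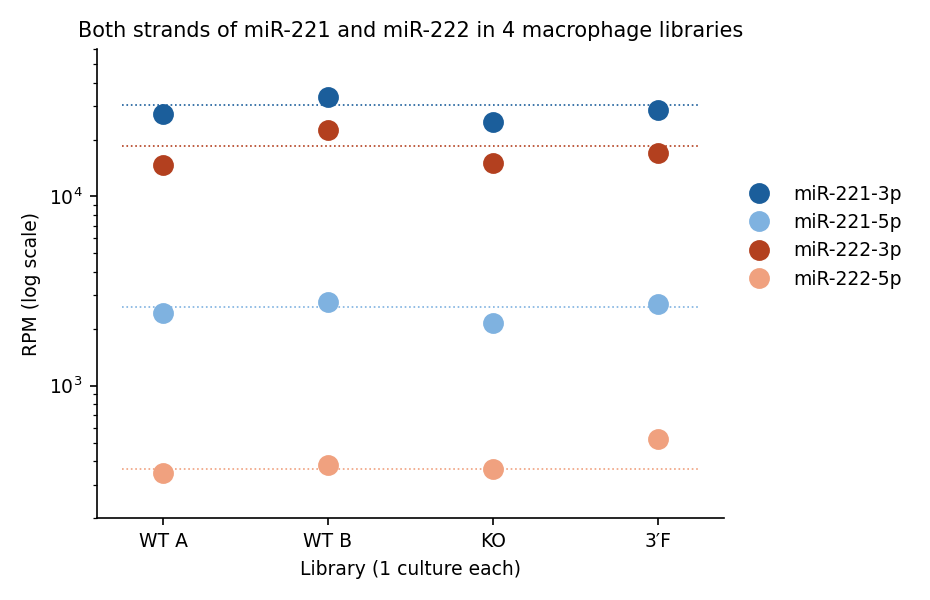
Level of each strand in RPM (log scale, y axis) in the 4 libraries (x axis), 1 point for each library, with the WT mean as a dotted line. The order miR-221-3p, miR-222-3p, miR-221-5p, miR-222-5p held in all 4 libraries, WT B was the highest point for miR-222-3p (22439 RPM) and 3′F the highest for miR-222-5p (524 RPM).

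Together the 2 guides held 3.98% of all counts of KO (interval 3.97 to 3.99), 4.54% of 3′F (4.53 to 4.55), 4.203% of WT A (4.19 to 4.21) and 5.60% of WT B (5.59 to 5.62). With the passengers included, the pair held between 4.23% (KO) and 5.92% (WT B). For comparison, miR-21a-5p, the most abundant miRNA, held 33.4% to 37.9%.

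The strands of the miR-221 hairpin were in a nearly constant proportion. miR-221-5p made up 7.99% of the hairpin's counts for KO (interval 7.92 to 8.06), 8.68% for 3′F (8.61 to 8.76), 8.14% for WT A (8.07 to 8.22) and 7.62% for WT B (7.54 to 7.70), so the guide was between 10.5 and 12.1 times its passenger. KO lay between the WT libraries and 3′F 1.07-fold above WT A. The log2 ratio of 5p to 3p ranged over 0.21 in the 4 libraries, rank 57 of 63 hairpins (1 being the widest range) that had both strands at 10 RPM or more on average, each strand on a single line, and a median range of 0.47. Minor strands among the 63 went down to 10.0 RPM, where counting error is larger. What part counting error has in this rank was not tested. Although a passenger, miR-221-5p was abundant. Of 139 hairpins with at least 10 RPM over both strands, it was the minor strand with the highest level (2516 RPM on average over the 4 libraries), before miR-27a-5p (1514 RPM). By its share of the hairpin it had rank 47, between miR-342 (8.55%) and miR-32 (7.96%), and the median minor strand share was 2.59%.

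The strands of the miR-222 hairpin were more unequal and varied more. miR-222-5p made up 2.36% of the hairpin's counts for KO (interval 2.30 to 2.41), 3.01% for 3′F (2.95 to 3.07), 2.31% for WT A (2.25 to 2.37) and 1.67% for WT B (1.62 to 1.72). In the same order, the guide was 41.4, 32.2, 42.4 and 58.8 times its passenger. KO overlapped WT A within counting error, whereas 3′F lay above both WT libraries, by 1.30-fold over WT A and by more over WT B. The log2 ratio of 5p to 3p in 3′F exceeded the mean of the WT libraries by 0.63, the highest value of the 63 hairpins, of which the next (miR-450b) had 0.42 and the median was -0.06. The WT libraries themselves differed by 0.47 for this hairpin, rank 9 of 63 by size, so the 3′F shift was 0.39 and had rank 6 against WT A alone, and was 0.87 with rank 1 against WT B alone. For miR-221 the shift in 3′F was 0.15, rank 12. By its average minor strand share the miR-222 hairpin had rank 71 of 139, between miR-511 (2.59%) and miR-3057 (2.21%), and miR-222-5p had rank 10 by its level as a minor strand.

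**Figure D2:**
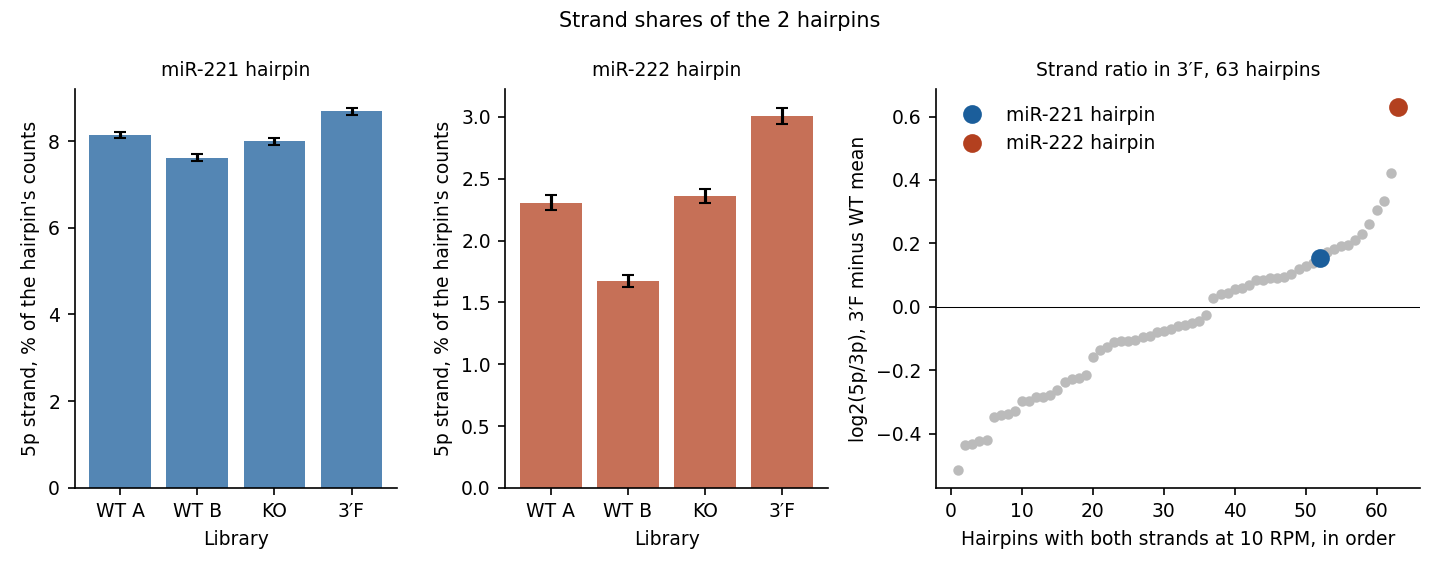
The left and middle panels show the share of the 5p strand in each hairpin's counts (y axis, %) by library (x axis) with 95% Wilson intervals, and the right panel shows, for 63 hairpins in order (x axis), the log2 ratio of 5p to 3p in 3′F minus the WT mean (y axis). The miR-221 share stayed between 7.62% and 8.68%, the miR-222 share ran from 1.67% in WT B to 3.01% in 3′F, and the miR-222 hairpin is the rightmost point at 0.63.

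The guide of miR-221 outnumbered that of miR-222 in every library. The ratio of miR-221-3p to miR-222-3p counts was 1.65 for KO (interval 1.65 to 1.66), 1.69 for 3′F (1.68 to 1.70), 1.87 for WT A (1.87 to 1.88) and 1.497 for WT B (1.49 to 1.504). The WT mean was 1.69 ± 0.27 (SD, n = 2), and KO and 3′F both lay between the WT libraries. Libraries represent sequences unequally because ligation depends on sequence, so the level of one strand against another is a ratio of reads, while its difference between libraries compares the same sequences.

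The ratio of the passengers behaved differently. miR-221-5p over miR-222-5p was 5.95 for KO (interval 5.80 to 6.10), 5.17 for 3′F (5.06 to 5.30), 7.04 for WT A (6.85 to 7.23) and 7.26 for WT B (7.04 to 7.50), with a WT mean of 7.15 ± 0.16 (SD, n = 2). The WT libraries overlapped within counting error and both mutants lay below them. How often other passenger ratios lie outside both WT libraries was not counted. Of the levels of 251 miRNAs with a mean of 10 RPM or more, 39.4% lay below both WT libraries in KO and 37.8% above. In 3′F these shares were 44.2% and 22.7%. The lower ratio in 3′F goes with the high miR-222-5p of that library, and that in KO with its low miR-221-5p.

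To place the steadiness of the guide ratio, it was set beside 49 pairs of neighboring hairpins on 1 strand, with starts within 10 kb and the more abundant strand of each at 10 RPM or more. Its log2 value ranged over 0.32 in the 4 libraries (1.25-fold), rank 19 of 49 from the narrowest, with a median range of 0.36. Its neighbors in this order were miR-192-5p with miR-194-5p (0.32) and miR-132-3p with miR-212-5p (0.34), and the ends were miR-200b-3p with miR-429-3p (0.09) and miR-188-5p with miR-501-3p (0.99). Of the pairs, several share a hairpin and so are not independent. In 29 of the 49, as for miR-221 and miR-222, both strands were listed on 1 line each. In the others a strand is listed for more than 1 hairpin, so the ratio is not that of the neighbors alone. The position of the miR-221 and miR-222 pair is close to the middle.

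**Figure D3:**
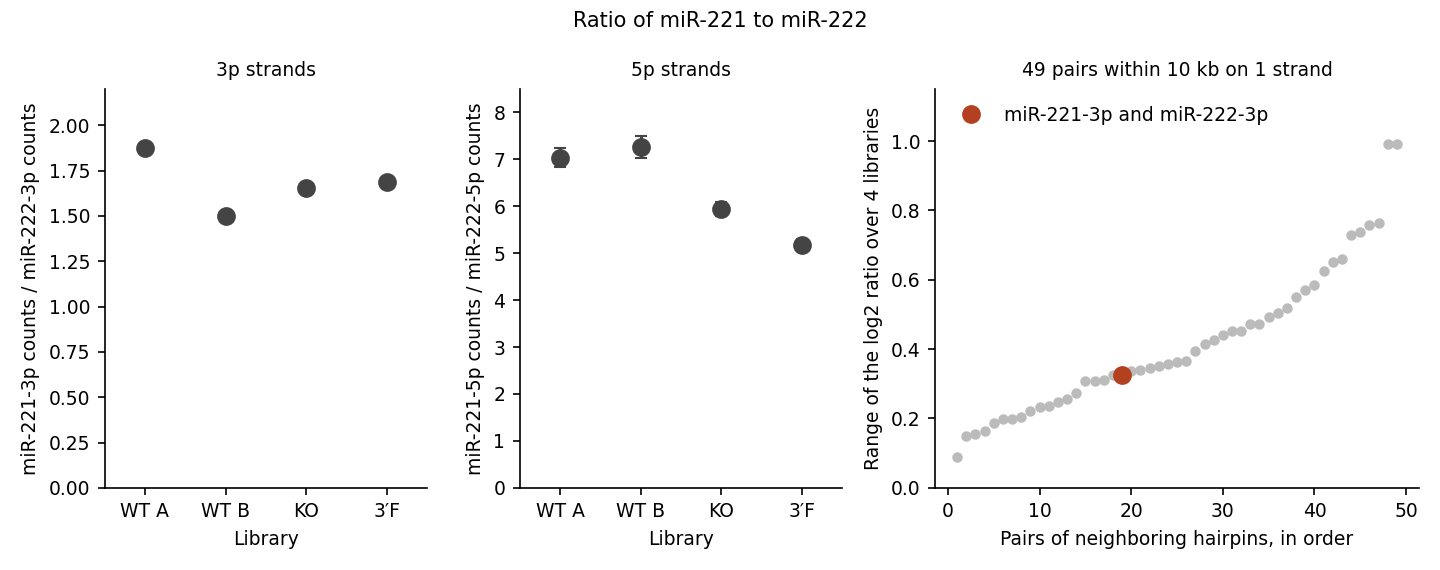
The left and middle panels show the ratio of miR-221 to miR-222 counts (y axis, from 0) by library (x axis) for the 3p and 5p strands with 95% Wilson intervals, and the right panel shows the range of the log2 ratio over the 4 libraries (y axis) for 49 neighboring pairs in order (x axis). The 3p ratio of KO (1.65) and 3′F (1.69) lies between WT B and WT A, the 5p ratio of both mutants lies below both WT libraries, and the pair has rank 19 from the narrowest.

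Against wild type, none of the 4 strands was called changed in KO, where called means that WT A and WT B were each exceeded, or each undercut, by 2-fold or more. Of 251 miRNAs with a mean of 10 RPM or more, 3.59% were called in KO. On the log2(RPM + 1) scale, the difference from the WT mean was -0.30 for miR-221-3p, -0.27 for miR-221-5p, -0.31 for miR-222-3p and -0.0043 for miR-222-5p, with a median of 0.00 over the 251. miR-221-3p was 0.91-fold WT A and 0.74-fold WT B, and miR-221-5p 0.89-fold and 0.78-fold. These 2 strands lay below both WT libraries in KO, as did 39.4% of the 251. miR-222-3p was 1.03-fold WT A and 0.67-fold WT B, so its direction depended on the WT library. The 4 strands include 0 above both WT libraries, against 37.8% of the 251. For miR-222-3p the WT libraries differed from each other by more (0.62) than KO did from their mean, and for miR-221-3p by about as much (0.29). For miR-221-5p the difference from WT (0.27 in size) exceeded that between the WT libraries (0.19). Against WT A alone, which has the same letter, KO differed by -0.14 for miR-221-3p, -0.17 for miR-221-5p, 0.04 for miR-222-3p and 0.07 for miR-222-5p.

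In 3′F, 0 of the 4 strands were called, against 0.797% of the 251 miRNAs. The difference from the WT mean was -0.10 for miR-221-3p, 0.06 for miR-221-5p and -0.13 for miR-222-3p on the same scale, and these 3 strands lay between WT A and WT B. miR-222-5p differed by 0.53, being 1.52-fold WT A and 1.37-fold WT B, where WT B exceeded WT A by 0.14. By this difference it had rank 4 of the 251 from the highest, which had a median of -0.08. Of the 251, 22.7% lay above both WT libraries in 3′F and 44.2% below both, and the pair had 1 and 0 of its 4 strands there. Against WT A alone, 3′F differed by 0.06 for miR-221-3p, 0.16 for miR-221-5p, 0.21 for miR-222-3p and 0.60 for miR-222-5p. The libraries of 3′F and KO were also compared directly. The log2 difference of KO from 3′F was -0.20 for miR-221-3p, -0.33 for miR-221-5p, -0.17 for miR-222-3p and -0.53 for miR-222-5p, with a median of 0.09 over the 251. All 4 strands were lower in KO than in 3′F, as were 96 of the 251, in 2 single libraries.

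Between the WT libraries, 0 of 251 miRNAs differed 2-fold. miR-222-3p, however, had rank 9 of the 251 by the size of that difference (0.62), and was the most abundant of those 9. miR-221-3p had rank 65, miR-221-5p rank 117 and miR-222-5p rank 150. All 4 strands were higher in WT B than in WT A, as were 62.5% of the 251, with a median of 0.07. The summed guides were 1.33-fold higher in WT B.

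**Figure D4:**
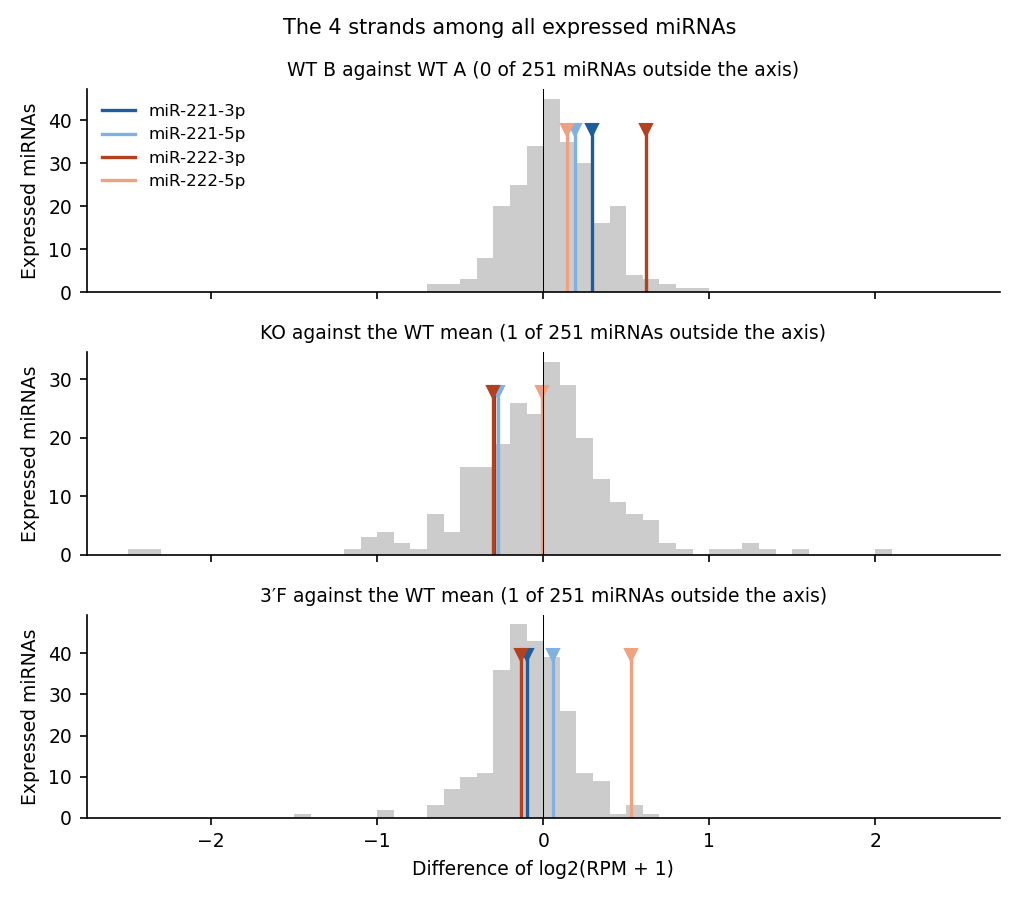
Histograms (y axis, number of miRNAs) of the difference of log2(RPM + 1) (x axis) for 251 expressed miRNAs between WT B and WT A, KO and the WT mean, and 3′F and the WT mean, with the 4 strands as colored lines. miR-222-3p stands to the right between the WT libraries (0.62) and miR-222-5p to the right in 3′F (0.53), whereas in KO 3 strands stand together at -0.31 to -0.27.

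The miRNAs whose levels followed those of the guides most closely were found by the root mean square difference of log2(RPM + 1) over the 4 libraries, after each miRNA was centered on its own mean. For miR-221-3p they were miR-1306-5p (0.033), miR-3535 (0.040), miR-27b-5p (0.052), miR-1933-3p (0.055) and miR-664-3p (0.060), against a median of 0.21 over the expressed miRNAs. Its own passenger came at place 7 (0.074) and miR-222-3p at place 28 (0.12). For miR-222-3p they were miR-342-5p (0.087), miR-1306-5p (0.093), miR-92a-3p (0.094), miR-365-3p (0.099) and miR-128-3p (0.099), with miR-221-3p at place 10. miR-222-5p came at place 154 for its own guide (0.31, against a median of 0.27). With 4 libraries such likeness is a description. Except for miR-27b-5p, miR-92a-3p and miR-128-3p, the miRNAs named were under 100 RPM.

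Other miRNAs known to repress cyclin-dependent kinase inhibitors were examined beside the pair. They were those of the miR-17 family, which act on Cdkn1a (p21), and those of the miR-25 family, which act on Cdkn1c. Of 11 listed, 7 were expressed, and 0 were called in KO or 3′F. The median of their differences from WT was -0.22 for KO and -0.45 for 3′F, and 5 and 4 of the 7 lay below both WT libraries, where 39.4% and 44.2% of the 251 did. miR-17-5p measured 713.5 RPM for KO, 640 for 3′F, 888 for WT A and 1030 for WT B, and miR-25-3p, in the same order, 5928, 5143, 5075 and 6849 RPM. The guides of miR-221 and miR-222 were thus more abundant in reads than any of the 11. Of 9 miRNAs linked to inflammatory signalling, 7 were expressed, with a median of -0.11 in KO and -0.02 in 3′F. In KO 1 of them was called higher (miR-146b-5p) and 1 lower (miR-146a-5p), and in 3′F 0 were higher and 1 (miR-146a-5p) lower.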

How the data were processed

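Small RNA of 4 BMDM libraries was read from 1 deposited table, whose lines were matched to the samples by the library names in the labels. The submitters' processing notes name cutadapt 1.8.3. The aligner, counter, genome build and miRNA release are not given in the sources used here. The authors deposited estimated counts, some of them fractions, and RPM, each count divided by the sum of the 2129 lines of its library. From these, 1 line per mature miRNA (highest summed count) was taken, giving 1979. Differences are of log2(RPM + 1), which understates changes of low miRNAs. Expressed means a mean of at least 10 RPM. The 2-fold rule was tried on simulated data in which the planted changes were all larger than 2-fold, so changes near that size were not tested. With single mutant libraries, p-values were left out. Library totals were 11410940 to 19087640 counts, which limit shares as their Wilson intervals show.

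Alternatives were 4 other scalings (among them edgeR 4.0.16 TMM and DESeq2 1.42.0 size factors on rounded counts), another pseudocount, other thresholds and each WT library left out. Members and lists were chosen with earlier results of these data known. The lists, of miRNAs linked to kinase inhibitors, inflammatory signalling, myeloid, endothelial, stromal, erythroid and lymphocyte cells, come from general knowledge. Named miRNAs are the 4 strands, miRNAs with the same seed, the 5 most alike, listed miRNAs and neighbors in rank. miR-450b and miR-27a-5p were named after their values were seen, as were miR-17-5p and miR-25-3p among the listed. Positions come from RefSeq (GRCm38.p6) and GENCODE vM21 (GRCm38), and 941 of 1235 precursors were placed by symbol. Python 3.11.15, pandas 2.3.3, scipy 1.17.1 and R 4.3.3 were used.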

Additional observations from a re-analysis of the deposited data

How the results depend on the processing

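No paired analysis was possible because KO and 3′F each have 1 library, of letter A, so each shares 1 letter with WT. The values against the WT library of that letter are those without WT B. The log2 differences of the 4 strands and of the summed guides from WT moved by less than 1 SD of the WT libraries in all 70 alternatives run on them. That SD is wide with 2 libraries, and leaving out 1 of them cannot move a value past it. Left-out libraries changed the sign for miR-222-3p in KO (-0.58 without WT A, 0.04 without WT B), for miR-222-5p in KO, and in 3′F for miR-221-3p, miR-221-5p, miR-222-3p and the summed guides. That of miR-222-5p in 3′F stayed between 0.46 and 0.61. Under the other scalings and the smaller pseudocount the signs held, except for miR-222-5p in KO (-0.06 to 0.04). None of the 4 strands was called under any scaling, at 1.5-fold, or without a WT library.

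A threshold of 1.5-fold raised the number of miRNAs called from 9 to 27 for KO and from 2 to 6 for 3′F, and one of 3-fold lowered it to 4 and 1. Requiring 100 RPM left 3 and 1 called, and requiring 1 RPM gave 17 for KO. Leaving out a WT library gave 13 to 15 for KO (15 without WT A) and 2 to 5 for 3′F (5 without WT B). The rank of the guide ratio among neighboring pairs, 19 of 49, became 12 of 27 with a minimum of 100 RPM, 9 without WT A and 13 without WT B, and 10 of 29 for strands listed on 1 line each. The rank of the miR-222 hairpin by its shift in 3′F was 1 without WT A, 6 without WT B (shifts 0.87 and 0.39), and 1 with minimums of 1 and 100 RPM. The rank of miR-222-5p in 3′F, 4, became 1 of 126 with a minimum of 100 RPM and 5 without either WT library. The alternatives for the strand shift, its rank, the rank of miR-222-5p and the 1-line pairs were chosen after seeing the data. For the changes by library the cause was not tested.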
